A study of Homo sapiens with 16 samples.

Results

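Expression of 7 chemokine genes, CXCL8, CXCL1, CXCL2, CXCL3, CCL2, CCL7 and CCL20, was followed in HEK293 cells treated with a mineralocorticoid, a phorbol ester, or both. HEK293 is a human embryonic kidney line. The genes were chosen by symbol, with earlier results of these data known. Every probe set that the platform annotation ties to exactly 1 of these genes was used. This gave 12 probe sets of the 44988 single-gene probe sets on the array, and 7 of the 18132 genes that those probe sets cover.

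All cells had been given a plasmid encoding the MR (mineralocorticoid receptor, NR3C2), transfected at 500 ng per well for 24 h. Treatment then lasted 4 h, with 4 arrays per group. The groups were DOC plus PMA (100 nM deoxycorticosterone acetate with 10 nM PMA), PMA alone (10 nM), DOC alone (100 nM), and vehicle, which the treatment label of the arrays gives as none. DOC is an agonist of the MR, and PMA, a phorbol ester, switches on protein kinase C. The series title places the question in how the MR acts on inflammatory AP-1 signalling. All groups received the MR plasmid, and no group without it was analysed here, so an effect of DOC cannot be tied to the transfected receptor from these arrays. The arrays are labelled biological replicates, with nothing said of separate cultures or of what a replicate number shares across groups, so p-values measure the spread between these arrays.

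Chemokines are small secreted proteins that bind G protein-coupled receptors on leukocytes and direct their migration. CXCL8 (interleukin-8) and the close paralogs CXCL1, CXCL2 and CXCL3 attract neutrophils through CXCR2, and CXCL8 also acts through CXCR1. CCL2 and CCL7 attract monocytes through CCR2, and CCL20 attracts lymphocytes and dendritic cells through CCR6. Their transcription is known to be driven by NF-kB and AP-1, both of which lie downstream of protein kinase C, and several of their mRNAs carry AU-rich elements that mark them for rapid decay. In the kidney, epithelial cells are a known source of CXCL8 and CCL2 during inflammation.

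The promoters of 6 of the 7 genes were found among RefSeq sequences of build GRCh38.p14, each covering 250 bases before and 50 after the annotated start of the gene. They are shown because NF-kB and AP-1 are the factors these genes are best known for. The windows printed run from position -150 to -41 relative to the start, 5′ to 3′ on the gene's strand, and the capitals mark matches to TGANTCA (AP-1) or to GGAATTTCC (a kappa B core).
CXCL8, chr4:73740419-73740528, plus strand: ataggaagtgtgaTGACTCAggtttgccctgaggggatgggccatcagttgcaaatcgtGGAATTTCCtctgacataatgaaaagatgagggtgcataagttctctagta
CXCL1, chr4:73869243-73869352, plus strand: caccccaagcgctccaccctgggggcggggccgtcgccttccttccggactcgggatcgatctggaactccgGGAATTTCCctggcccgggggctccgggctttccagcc
CXCL2, chr4:74099236-74099345, minus strand: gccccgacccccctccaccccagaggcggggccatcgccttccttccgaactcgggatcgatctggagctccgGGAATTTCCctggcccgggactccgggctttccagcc
CXCL3, chr4:74038730-74038839, minus strand: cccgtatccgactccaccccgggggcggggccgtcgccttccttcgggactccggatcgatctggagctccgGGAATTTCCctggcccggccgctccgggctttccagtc
CCL7, chr17:34270071-34270180, plus strand: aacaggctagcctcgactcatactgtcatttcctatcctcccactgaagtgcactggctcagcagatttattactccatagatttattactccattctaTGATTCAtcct

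Both motifs were searched on both strands of the whole promoter sequence. TGANTCA occurred in 7.71% of the 35116 promoters of that table and GGAATTTCC in 0.461%, with no overlap between the matches shown. The CXCL8 promoter held both, TGACTCA at positions -137 to -131 and GGAATTTCC at -91 to -83. CXCL1, CXCL2 and CXCL3 held no TGANTCA and 1 copy each of GGAATTTCC, starting at -78, -77 and -78. Around it the 3 promoters share an unbroken run of 23 bases, ctccgGGAATTTCCctggcccgg. The CCL7 promoter held TGATTCA at -51 to -45, and the CCL20 promoter held no match to the letters of either motif. Only these letters were searched, so the lack of a match does not show that a promoter lacks a site for these factors. A match describes the sequence and does not show that a factor was bound.

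The arrays were alike in scale. Array medians lay between 4.91 and 4.96 on the log2 scale, and arrays of the same group correlated at 0.991 to 0.997. The 40th percentile of an array, between 4.05 and 4.12, is used here as the floor, below which a signal is read as no more than a bound. NR3C2 was above it, at 7.02 ± 0.18 in DOC plus PMA, 7.21 ± 0.23 in PMA, 7.38 ± 0.04 in DOC and 7.43 ± 0.13 in vehicle arrays (SD, n = 4 each). No group without the plasmid was analysed, so NR3C2 signal from the plasmid and from the cells' own gene cannot be told apart. NR3C2 was lower in DOC plus PMA than in vehicle arrays by the limma fit (log2 difference -0.41 ± 0.11, SE, adjusted p = 0.00413), as were 3291 of the 12495 genes tested. DOC plus PMA replicate 2, PMA replicate 2 and DOC replicate 1 are known from an earlier analysis of these arrays to deviate from their groups together. Of the 2206 genes higher with PMA than with vehicle, 54.2% had their highest PMA signal on PMA replicate 2, and 46.7% their highest DOC plus PMA signal on DOC plus PMA replicate 2. Without those 3 arrays the counts of chemokine probe sets given below were the same, 12 of 12 for PMA against vehicle and 0 of 12 for each comparison of DOC.

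On the signals as deposited, PMA raised all 7 chemokines. CXCL3 reached the floor on 2 arrays only, and against the floor no rise of CXCL3 was found. On each of the 12 probe sets the 4 PMA arrays lay above the 4 vehicle arrays, where 10.7% of all 49293 probe sets did so. All 12 were called higher by limma fitted to all probe sets without a filter (adjusted p under 0.05), against 10.6% of all probe sets. Because the 7 genes were chosen with earlier results of these data known, these shares are a description and no test of the group. Their median log2 difference was 2.70 on the signals as deposited and 1.92 with vehicle signals below the floor set to it, against a median of 0.00 over all probe sets as deposited. For 10 of the 12 the vehicle arrays lay below the floor, so that the sizes of their rise cannot be ranked. At most a lower bound of the rise is known for these, and for the 2 CXCL3 probe sets among them not even that. Since these are bulk samples, more cells expressing a chemokine and more RNA per cell cannot be told apart.

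**Figure D1:**
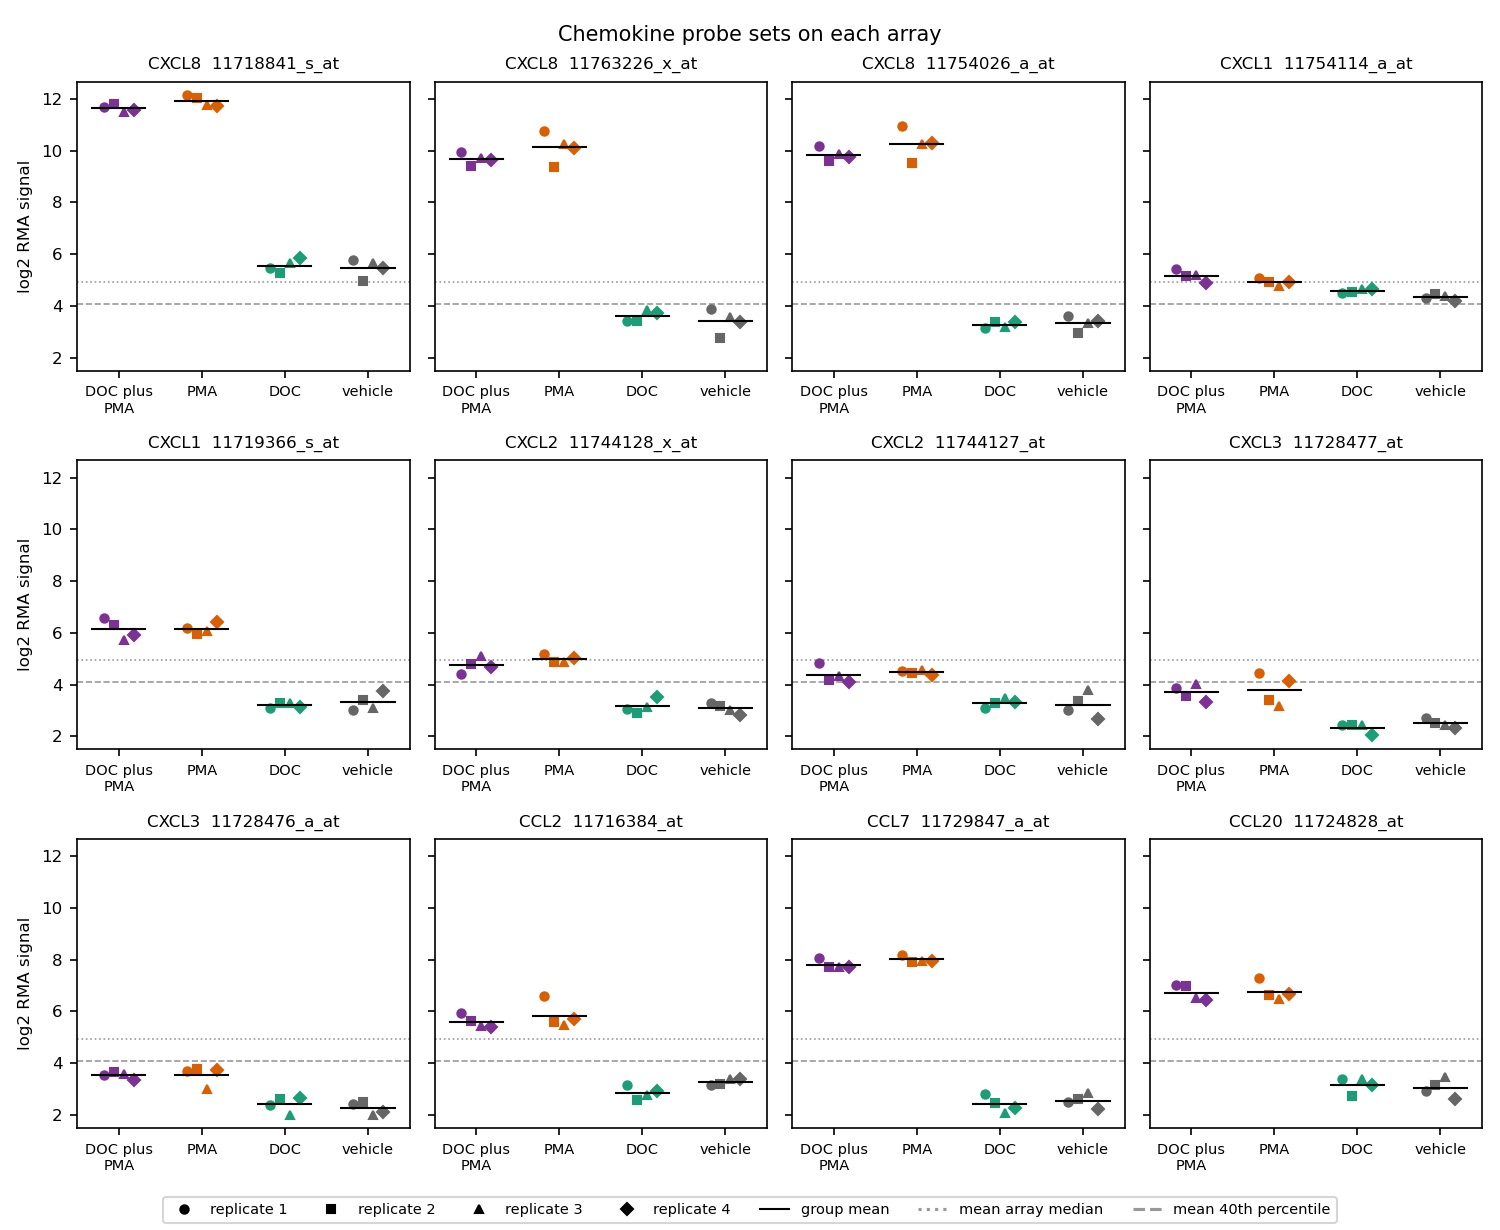
Log2 RMA signal (vertical axis) of each of the 12 chemokine probe sets on each array, by treatment group; symbols mark the replicate number and black lines the mean of 4 arrays. The dashed line is the mean 40th percentile of the arrays and the dotted line their mean median. DOC plus PMA and PMA arrays stand above DOC and vehicle arrays in every panel, and both CXCL3 probe sets stay near or below the dashed line.

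CXCL8, a potent neutrophil attractant, had 3 probe sets. On 11718841_s_at the log2 signals were 11.70, 11.79, 11.49 and 11.59 in DOC plus PMA replicates 1 to 4 and 12.17, 12.02, 11.75 and 11.73 in PMA replicates 1 to 4. They were 5.46, 5.26, 5.65 and 5.86 in DOC and 5.79, 4.95, 5.65 and 5.47 in vehicle arrays. The PMA arrays stood at percentile 99.1 to 99.5 of their array and all DOC and vehicle arrays lay above the floor, so the CXCL8 change was measured on both sides. It came to a log2 difference of 6.45 ± 0.16 for PMA against vehicle, or 87.5-fold (adjusted p = 6.22e-16).

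The other CXCL8 probe sets gave differences of the same order. Probe set 11754026_a_at read 10.17, 9.59, 9.86 and 9.74 in DOC plus PMA, 10.97, 9.52, 10.28 and 10.29 in PMA, 3.13, 3.36, 3.19 and 3.39 in DOC, and 3.61, 2.96, 3.33 and 3.40 in vehicle arrays. Its vehicle signals lay below the floor. With vehicle set to the floor the PMA mean was at least 73.0-fold higher, and on 11763226_x_at, where the PMA arrays read 9.37 to 10.75 and the vehicle arrays 2.75 to 3.89, at least 66.3-fold higher.

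CXCL1 was read by 2 probe sets that gave different sizes of response. On 11719366_s_at its log2 signals were 6.56, 6.31, 5.71 and 5.93 in DOC plus PMA, 6.18, 5.96, 6.06 and 6.40 in PMA, 3.09, 3.30, 3.27 and 3.15 in DOC and 3.00, 3.41, 3.09 and 3.73 in vehicle arrays. The PMA mean was at least 4.22-fold above vehicle set to the floor, with a log2 difference between the signals as deposited of 2.84 ± 0.17 (adjusted p = 3.17e-10). On 11754114_a_at all 16 arrays were above the floor, with 5.42, 5.15, 5.18 and 4.88 in DOC plus PMA, 5.09, 4.92, 4.78 and 4.91 in PMA, 4.50, 4.55, 4.65 and 4.64 in DOC, and 4.29, 4.46, 4.37 and 4.18 in vehicle arrays. Here the log2 difference for PMA against vehicle was 0.60 ± 0.10, or 1.52-fold (adjusted p = 0.00016). On both probe sets every array with PMA lay above every array without it.

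The lower bound of the response of 11719366_s_at, 2.08 on the log2 scale, thus exceeded the 0.60 measured on 11754114_a_at. Because the gene-level fit takes the probe set with the higher mean over all arrays after filtering, CXCL1 enters it as 11754114_a_at. With the mean of both probe sets the log2 difference was 1.72. In Affymetrix naming the suffixes s and x mark probe sets with probes that can also match other transcripts, and CXCL1, CXCL2 and CXCL3 are close paralogs, so some of the signal of one could come from another. A single further probe set, annotated to CXCL1 and CXCL2 together and therefore not counted among the 12, averaged 4.12 in PMA and 3.46 in vehicle arrays and was called higher (adjusted p = 3.55e-05), from vehicle signals below the floor.

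CXCL2, like CXCL1 a CXCR2 ligand, rose across the floor. Probe set 11744128_x_at read 4.40, 4.80, 5.12 and 4.68 in DOC plus PMA, 5.19, 4.88, 4.87 and 5.04 in PMA, 3.07, 2.91, 3.13 and 3.52 in DOC, and 3.29, 3.17, 3.01 and 2.84 in vehicle arrays. None of the DOC or vehicle arrays reached the floor, and all PMA arrays passed it. The PMA mean was at least 1.89-fold higher (log2 difference of the signals as deposited 1.92 ± 0.14, adjusted p = 1.03e-08). On 11744127_at the PMA arrays read 4.36 to 4.56 and the vehicle arrays 2.67 to 3.77, and the PMA mean was at least 1.31-fold higher. The signals as deposited differed there by 1.25 ± 0.18 on the log2 scale (limma, adjusted p = 4.09e-05).

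CXCL3, the third paralog, lay well below the floor in DOC and vehicle arrays and near or below it with PMA. On 11728477_at its log2 signals were 3.87, 3.56, 4.03 and 3.33 in DOC plus PMA, 4.46, 3.39, 3.15 and 4.12 in PMA, 2.42, 2.45, 2.44 and 2.03 in DOC, and 2.70, 2.52, 2.43 and 2.33 in vehicle arrays. PMA replicates 1 and 4 were its only arrays above the floor, and on 11728476_a_at, at 3.01 to 3.79 in PMA and 2.00 to 2.51 in vehicle arrays, no array was. Both probe sets were called higher with PMA on the signals as deposited (adjusted p = 0.000177 and 8.54e-06), and neither was once signals below the floor were raised to it (adjusted p = 0.26 and 0.386). No fold is given for CXCL3, which did not pass the dim filter of the gene-level fit (at or above the floor on at least 4 of 16 arrays).

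CCL2 and CCL7 are neighbouring genes of the monocyte chemoattractant family. CCL7 read 8.06, 7.71, 7.72 and 7.73 in DOC plus PMA, 8.18, 7.92, 7.97 and 7.97 in PMA, 2.82, 2.46, 2.07 and 2.27 in DOC, and 2.48, 2.63, 2.86 and 2.24 in vehicle arrays (probe set 11729847_a_at). The PMA arrays lay at percentile 82.0 to 84.3 of their array and the vehicle arrays at 8.81 to 21.9. The PMA mean was at least 15.3-fold above vehicle set to the floor, with a log2 difference of the signals as deposited of 5.46 ± 0.14 (adjusted p = 1.55e-15).

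CCL2, on probe set 11716384_at, read 5.92, 5.64, 5.44 and 5.42 in DOC plus PMA, 6.60, 5.58, 5.49 and 5.69 in PMA, 3.16, 2.57, 2.78 and 2.94 in DOC, and 3.15, 3.21, 3.41 and 3.37 in vehicle arrays. PMA replicate 1 stood above the other 3 PMA arrays, which lay within 5.49 to 5.69. The PMA mean was at least 3.40-fold higher than vehicle set to the floor. The log2 difference of the signals as deposited was 2.56 ± 0.19 (limma, adjusted p = 8.34e-09), and it ranged from 2.30 to 2.67 when each array was left out in turn.

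CCL20, the ligand of CCR6, read 7.02, 6.97, 6.52 and 6.43 in DOC plus PMA, 7.30, 6.63, 6.47 and 6.67 in PMA, 3.40, 2.72, 3.41 and 3.15 in DOC, and 2.92, 3.15, 3.47 and 2.62 in vehicle arrays (probe set 11724828_at). All DOC and vehicle arrays were below the floor and all PMA arrays well above it. The PMA mean was at least 6.46-fold higher than vehicle set to the floor. The log2 difference of the signals as deposited was 3.73 ± 0.20 (limma, adjusted p = 9.98e-11). CXCL2, CCL2, CCL7 and CCL20 passed the dim filter of the gene-level fit through their PMA and DOC plus PMA arrays alone, so their presence there is no separate result.

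**Figure D2:**
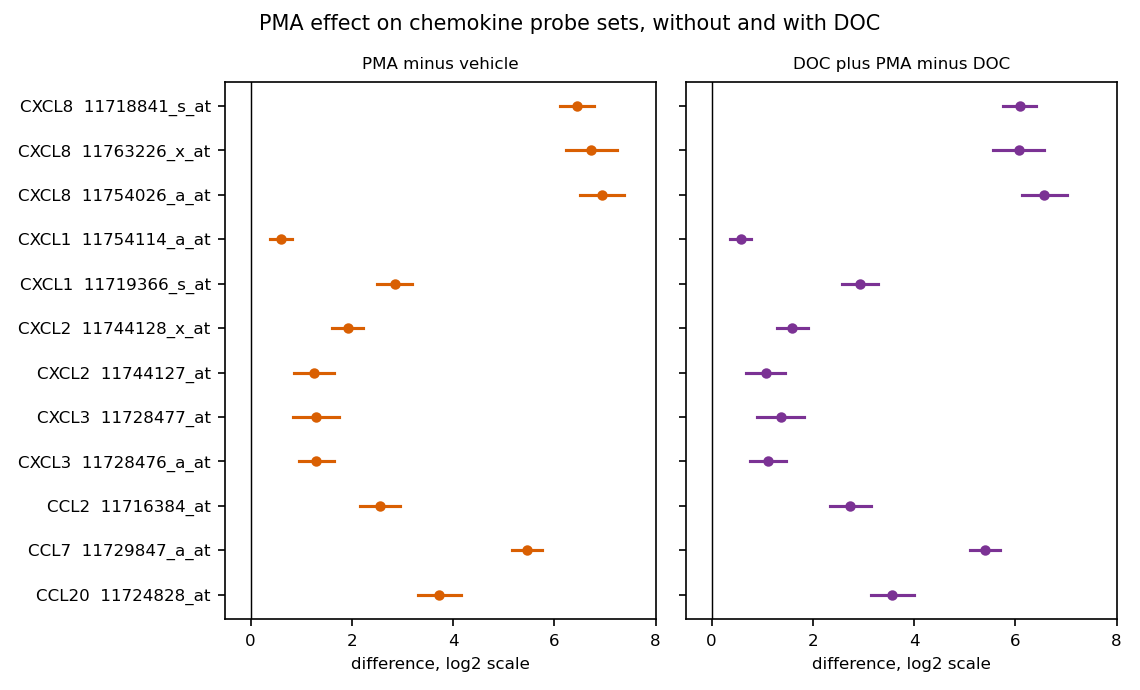
Log2 difference (horizontal axis) of each chemokine probe set, for PMA against vehicle and for DOC plus PMA against DOC; points are limma estimates from 4 arrays per group and bars their 95% confidence intervals. All intervals lie above 0. For 10 of the 12 probe sets the DOC and vehicle arrays lay below the floor, so the plotted size is not exact; for CXCL8 on 11754026_a_at it is 6.94 as deposited and at least 6.19 against the floor.

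The response to PMA was also present in cells that received DOC. DOC plus PMA against DOC called 12 of 12 probe sets higher, against 9.58% of all probe sets. The 4 DOC plus PMA arrays lay above the 4 DOC arrays on all 12, against 10.8% of all probe sets. CXCL8 on 11718841_s_at was 6.08 ± 0.16 higher, or 67.8-fold, CCL7 at least 13.1-fold, CCL20 at least 6.23-fold and CCL2 at least 2.85-fold. CXCL2 on 11744128_x_at was at least 1.57-fold higher. Raised to the floor, 1 of the 2 CXCL2 probe sets (11744127_at, adjusted p = 0.17) and both of CXCL3 were no longer called, which left 9 of 12. DOC plus PMA against vehicle likewise called 12 of 12 higher, against 10.1% of all probe sets, and shares the vehicle arrays with the PMA comparison.

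DOC alone moved no chemokine past the threshold. By limma, 0 of 12 probe sets were called in DOC against vehicle, where 0.0446% of all probe sets were, and 2 of the 12 had an unadjusted p under 0.05. In the gene-level fit none of the 6 chemokines tested was called, against 0.120% of the 12495 genes. The differences ran from -0.42 to 0.26 on the log2 scale, and those of 10 of the 12 probe sets compare signals that lay below the floor on all DOC and vehicle arrays.

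CXCL1 on 11754114_a_at came closest. Its mean was 4.59 ± 0.07 in DOC and 4.32 ± 0.12 in vehicle arrays (SD, n = 4 each), and all 4 DOC arrays lay above all 4 vehicle arrays, as they did on 1.56% of all probe sets. The log2 difference was 0.26 with a 95% interval of 0.05 to 0.47, and its p of 0.018 by limma was 1 after adjustment over all probe sets. The second CXCL1 probe set, below the floor in both groups, gave -0.11 with an interval of -0.46 to 0.24.

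CCL2 differed in the other direction, with 3 of 4 DOC arrays below every vehicle array. The log2 difference was -0.42 with a 95% interval of -0.82 to -0.02, and its p of 0.04 by limma was 1 after adjustment over all probe sets. All 8 arrays were below the floor, and the difference was 0.02 once signals were raised to it. For CXCL8 on 11718841_s_at, measured above the floor, the difference was 0.09 with an interval of -0.24 to 0.42, so a change of CXCL8 by DOC alone of more than 0.42 on the log2 scale lies outside the interval.

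On top of PMA, DOC again moved no chemokine past the threshold. In DOC plus PMA against PMA, limma called 0 of 12 probe sets, where 0.142% of all probe sets were called, and 1 of the 12 had an unadjusted p under 0.05. None of the 6 chemokines in the gene-level fit was called, against 0.384% of genes. The signal was lower in DOC plus PMA than in PMA on 11 of the 12 probe sets, by a median log2 difference of -0.16 against 0.01 over all probe sets. The 12 probe sets belong to 7 genes measured on the same 8 arrays, so they are not independent readings of the direction.

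The 3 CXCL8 probe sets had the lowest of these estimates. The log2 difference was -0.27 on 11718841_s_at (95% interval -0.61 to 0.06), where 3 of 4 DOC plus PMA arrays lay below every PMA array. It was -0.46 on 11763226_x_at (interval -0.96 to 0.04) and -0.42 on 11754026_a_at (interval -0.87 to 0.02), and limma gave an adjusted p of 1 for each. Their size depended on single arrays. Without PMA replicate 1 they were -0.19, -0.25 and -0.19, and without PMA replicate 2, which has the lowest PMA signal on 11763226_x_at and 11754026_a_at, they were -0.24, -0.71 and -0.67 (adjusted p = 0.996, 0.602 and 0.332).

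Without pairing, estimates for the other chemokines also had intervals that include 0, apart from 1 CXCL1 probe set. CXCL1 on 11754114_a_at was 0.23 higher in DOC plus PMA than in PMA (interval 0.02 to 0.45, unadjusted p = 0.0317, adjusted p = 1), and its 4 group means ran in the order DOC plus PMA, PMA, DOC and vehicle. CCL2 differed by -0.23 (interval -0.63 to 0.16), CCL7 by -0.21 (interval -0.51 to 0.09) and CCL20 by -0.03 (interval -0.46 to 0.39). CXCL2 differed by -0.24 and -0.11 and CXCL3 by -0.08 and -0.03. The count of probe sets lower in DOC plus PMA was 7 of 12 without PMA replicate 1, 7 of 12 without DOC plus PMA replicate 4 and 8 of 12 without PMA replicate 4, and 9 to 11 of 12 without any other of the 8 arrays.

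Same-numbered PMA and DOC plus PMA arrays were taken as pairs. The pairing was inferred from these same arrays and is not in the labels, so intervals that use it are a description only. CXCL8 on 11718841_s_at and CCL7 were lower in DOC plus PMA in 4 of 4 pairs, as 6.13% of all probe sets were. The CXCL8 differences were -0.47, -0.23, -0.26 and -0.14 in pairs 1 to 4, and those of CCL7 were -0.12, -0.21, -0.25 and -0.24. With the pair as a block the intervals narrowed to -0.46 to -0.09 for CXCL8 on 11718841_s_at, and to -0.37 to -0.05 for CCL7. The other CXCL8 probe sets were lower in 3 of 4 pairs each, with blocked intervals of -0.74 to -0.18 on 11763226_x_at and -0.72 to -0.13 on 11754026_a_at. CXCL1 on 11754114_a_at went the other way, lower in 1 of 4 pairs, with a blocked interval of 0.03 to 0.44. These intervals are not adjusted, and after adjustment over all probe sets limma called none of the 12 (adjusted p = 0.576 and 0.713 for CXCL8 on 11718841_s_at and for CCL7).

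**Figure D3:**
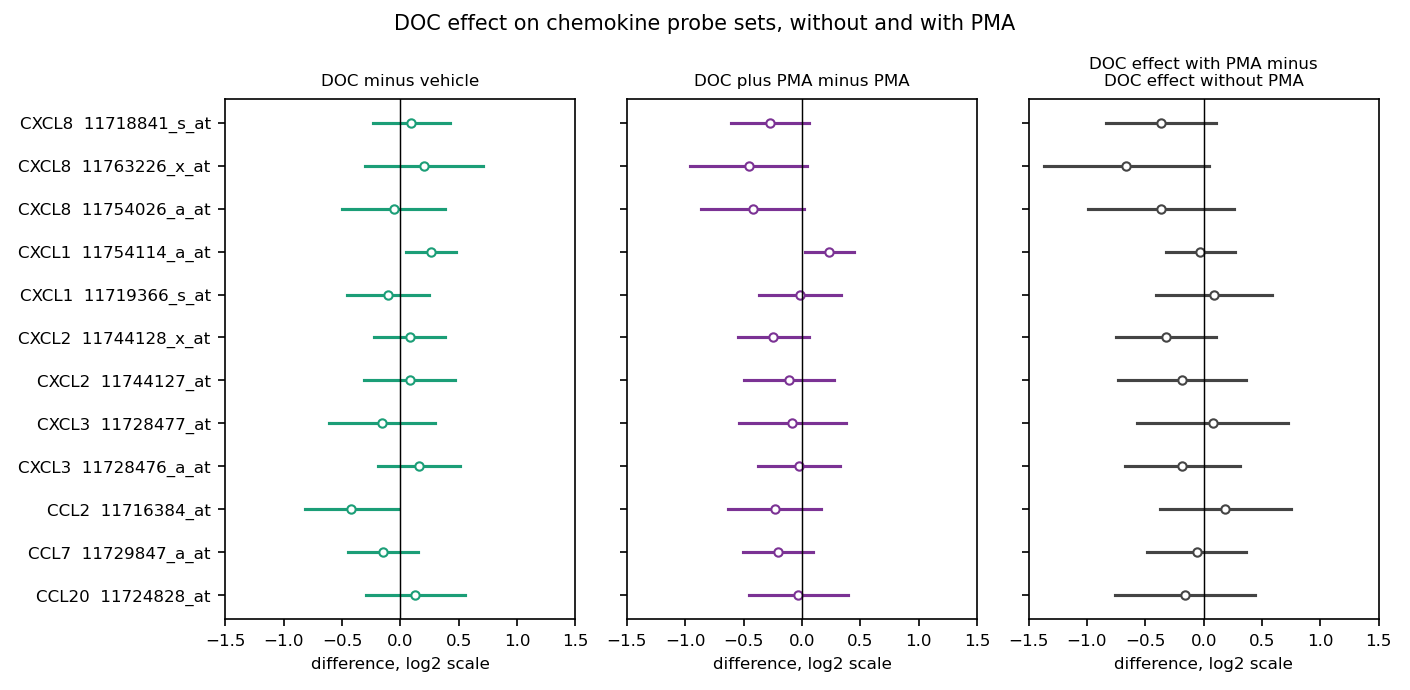
Log2 difference (horizontal axis) of each chemokine probe set in 3 panels (DOC minus vehicle, DOC plus PMA minus PMA, and the interaction, which is their difference); open points are limma estimates from 4 arrays per group and bars their 95% confidence intervals before any adjustment. Most intervals include 0, and none of the 12 probe sets was called in any of the 3 panels.

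Whether the effect of DOC differed with and without PMA was tested as an interaction. Limma called 0 of 12 probe sets, against 0.0243% of all probe sets, and none of the 12 had an unadjusted p under 0.05. The estimates ran from -0.66 for CXCL8 on 11763226_x_at (interval -1.37 to 0.05) to 0.19 for CCL2 (interval -0.38 to 0.75). The intervals are wide, so differences of that size in how DOC acts with and without PMA were not resolved by 4 arrays a group. Averaged over both levels of PMA, the effect of DOC was called on 0 of 12 probe sets, against 0.181% of all probe sets, with 2 of the 12 at an unadjusted p under 0.05. These were CXCL1 on 11754114_a_at, at 0.25 ± 0.07 (adjusted p = 0.228 over the genes of the gene-level fit, of which 0.432% were called), and CCL2, at -0.33 ± 0.13 (adjusted p = 0.924). CXCL1 passed when DOC plus PMA replicate 4 was left out (0.29, adjusted p = 0.0478), its adjusted p ranged from that value to 1 over the 27 alternatives tried, and its estimate was -0.06 with a 60th percentile filter, which keeps only the other CXCL1 probe set.

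Within the groups that received PMA, the chemokines were often highest on replicate 1. PMA replicate 1 gave the highest PMA signal on 9 of the 12 probe sets and the lowest on 0, whereas 18% of the 2206 genes higher with PMA had their highest PMA signal there. DOC plus PMA replicate 1 gave the highest signal of its group on 8 of the 12, against 18.4% of those genes. CCL2 showed the widest gap, with PMA replicate 1 at 6.60 and the next PMA array at 5.69. PMA replicate 2 and DOC plus PMA replicate 2, on which the largest shares of those genes peaked, were highest on 1 and 2 of the 12 probe sets. The 12 probe sets belong to 7 genes and are not independent readings, while each of the 2206 genes counts once. These counts describe the arrays, and the part of handling or labelling in them was not tested.

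**Figure D4:**
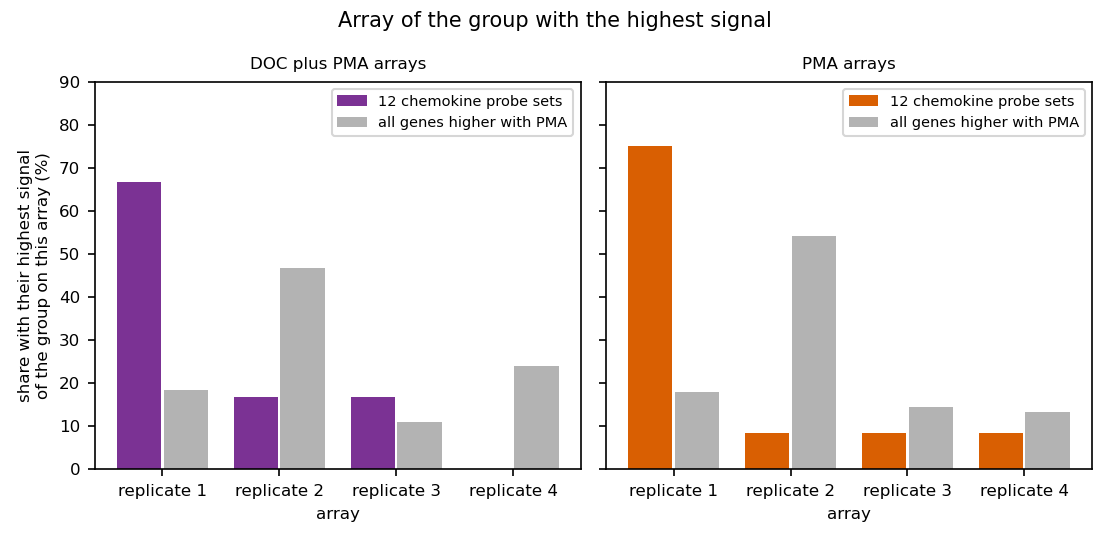
Share in percent (vertical axis, from 0) of the 12 chemokine probe sets, in colour, and of the 2206 genes higher with PMA, in grey, that had their highest signal of the group on each array, for DOC plus PMA arrays and PMA arrays. Replicate 1 leads for the chemokines in both groups and replicate 2 for the genes higher with PMA. The 12 probe sets belong to 7 genes, while each of the 2206 genes counts once.

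The members lie in 3 places in the genome. Many of their neighbours read below the floor in both PMA and vehicle arrays, where a lack of change cannot be read. CXCL8, CXCL1, CXCL3 and CXCL2 lie in 1 cluster on chromosome 4 that also holds the chemokine genes CXCL6, PF4V1, PF4, PPBP and CXCL5 between them. With PMA against vehicle these 5 interspersed genes differed by -0.05 to 0.14 on the log2 scale, and none was called by limma. CXCL5 and CXCL6, which like CXCL8 act through CXCR2, averaged 2.03 and 2.47 in PMA arrays and 2.08 and 2.43 in vehicle arrays, below the floor in both. PPBP, at 2.11 and 2.01, was below it too, and PF4V1 and PF4 averaged above it. Past CXCL2, the gene MTHFD2L, a mitochondrial folate enzyme, was higher with PMA by 0.59 ± 0.10 (adjusted p = 7.05e-05). The growth factor genes EPGN and EREG beyond it were not called and averaged below the floor in both groups.

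On chromosome 17, CCL2 and CCL7 are followed by CCL11 and CCL8, further ligands of the same family. CCL11 averaged 3.19 in PMA and 2.98 in vehicle arrays (log2 difference 0.22 ± 0.08, adjusted p = 0.0516 without filter) and CCL8 2.86 and 2.94 in the same groups, all below the floor. CCL20 on chromosome 2 was the only gene called among those measured around it, with DAW1, SPHKAP and PID1 between -0.05 and 0.16 and below the floor. Gene order was taken from RefSeq (GRCh38.p14).

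**Figure D5:**
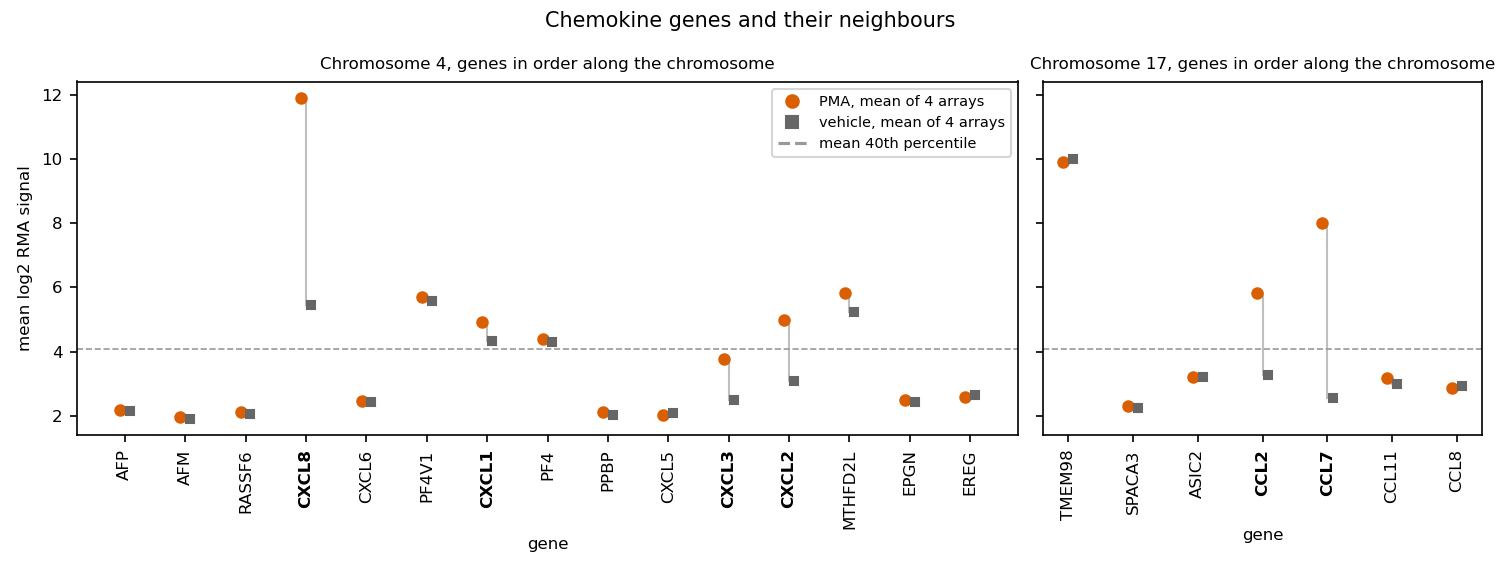
Mean log2 RMA signal (vertical axis) in PMA arrays (circles) and vehicle arrays (squares), n = 4 each, of the chemokine genes (bold) and their neighbours in order along chromosomes 4 and 17; the dashed line is the mean 40th percentile. Circles and squares of 1 gene may be compared, not levels of different genes. The bold genes separate, with CXCL8 at 11.92 in PMA and 5.46 in vehicle arrays, while CXCL6, PF4V1, PF4, PPBP and CXCL5 between them do not. CXCL6, PPBP, CXCL5 and the bold CXCL3 lie below the dashed line in both groups, where a change or its lack is not measured.

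Of 33 other chemokine ligands on the array, 11 passed the dim filter, and with PMA against vehicle 0 of these were called higher and 1 lower by limma, where 17.7% of all genes were higher and 29.3% lower. The 7 members were chosen with such results known, and the 22 ligands below the filter were not tested, so the count does not show how selective the response was. The one that fell was CXCL12, the ligand of CXCR4 that retains stem cells in bone marrow, at 4.13 ± 0.25 in DOC plus PMA, 4.30 ± 0.20 in PMA, 5.14 ± 0.23 in DOC and 5.11 ± 0.22 in vehicle arrays (SD, n = 4 each; PMA against vehicle -0.81 ± 0.14, adjusted p = 0.000132). The CXCL12 means in DOC plus PMA and PMA arrays lay near the floor. The median difference of the 11 was 0.15, against -0.04 over all genes. Without the filter, where 12.6% of genes were called higher, CXCL14 (3.75 in PMA and 3.17 in vehicle arrays) and CCL16 (2.20 and 2.00) were called as well, both below the floor in both groups. CCL24 was called higher in DOC plus PMA than in vehicle arrays (0.40, limma, adjusted p = 0.00327), as were 2185 of the 12495 genes tested. It averaged 4.18 and 3.79, near the floor and below it, so the size of the rise is not exact. None of the 11 was called in DOC against vehicle or in DOC plus PMA against PMA.

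Several receptors of the member chemokines read low. CXCR1, CXCR2, CCR1, CCR2 and CCR6 all averaged below the floor, between 2.27 and 3.56 in PMA arrays and between 2.35 and 3.53 in vehicle arrays. Of 20 chemokine receptors on the array, 5 were tested and 1 was called higher with PMA, against 17.7% of all genes. It was CXCR3, a receptor of interferon-induced chemokines (0.29 ± 0.08 for PMA against vehicle, adjusted p = 0.00807), near the floor at 4.41 and 4.12. In DOC plus PMA against DOC, CXCR3 differed by -0.10 and was not called (limma, adjusted p = 0.365). CXCR4, the receptor of CXCL12, was well above the floor, at 8.21 in PMA and 7.91 in vehicle arrays. It differed by 0.30 ± 0.19 (adjusted p = 0.218).

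Most listed genes for NF-kB, AP-1 and C/EBP factors, which bind chemokine promoters, and for inhibitors of NF-kB were higher with PMA. Of 19 tested, 17 were called higher and 0 lower, where 17.7% of all genes were higher and 29.3% lower, with a median log2 difference of 1.05 against -0.04 over all genes. RELA and NFKBIE did not pass. Among AP-1 subunits, FOS rose by 5.65 ± 0.11, FOSB by 4.38 ± 0.20, FOSL1 by 2.60 ± 0.13 and JUNB by 2.55 ± 0.15. Among NF-kB subunits, RELB rose by 1.64 ± 0.14 and NFKB1 by 1.43 ± 0.09, while RELA differed by 0.23 ± 0.10 (adjusted p = 0.057). These are mRNA levels and say nothing of the activity of the proteins.

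NFKBIA, which encodes the inhibitor that holds NF-kB in the cytoplasm, was the 1 gene of the 19 tested called with DOC. Of all genes, 0.120% were called for DOC against vehicle and 0.432% over both levels of PMA. NFKBIA averaged 8.44 ± 0.18 in DOC plus PMA, 8.11 ± 0.21 in PMA, 7.80 ± 0.20 in DOC and 7.09 ± 0.16 in vehicle arrays (SD, n = 4 each). DOC against vehicle raised it by 0.71 ± 0.12 (adjusted p = 0.0139), and the effect over both levels of PMA was 0.52 ± 0.08 (adjusted p = 0.00439). In DOC plus PMA against PMA it differed by 0.33 ± 0.12 and was not called (adjusted p = 0.779). TNFAIP3, which encodes another inhibitor of NF-kB signalling, differed by 0.72 ± 0.15 with DOC and was not called (adjusted p = 0.137).

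Of 10 tested regulators of AU-rich mRNA decay, 7 were higher with PMA and 0 lower (17.7% and 29.3% of all genes), with a median of 0.42, and KHSRP, HNRNPD and UPF1 did not pass. ZFP36 (tristetraprolin), which binds AU-rich elements and promotes decay, was higher by 3.82 ± 0.14, ZC3H12C by 1.09 ± 0.15, ZFP36L2 by 0.88 ± 0.09 and ZC3H12A (regnase-1), an RNase that degrades cytokine mRNAs, by 0.66 ± 0.13. None of the 10 was called in DOC against vehicle, where 0.120% of all genes were. Of other inflammatory cytokines, 5 of 9 tested were higher with PMA and 0 lower, against 17.7% and 29.3% of all genes. They were the interleukin-6 family members IL11 (at least 2.03 against the floor, since its vehicle arrays lay below it) and LIF (2.33 ± 0.24), IL12A (1.14 ± 0.14), TSLP (0.38 ± 0.12) and TNFSF9 (0.29 ± 0.10). IL11 passed the dim filter through its PMA and DOC plus PMA arrays alone, so its place in the count is no separate result. Without the filter, 7 of the 15 cytokines on the array were called higher, against 12.6% of genes. IL6 averaged 3.75 in PMA and 3.67 in vehicle arrays, below the floor in both.

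Genes whose pattern over the 16 arrays was most like each chemokine were found by Pearson correlation, as a description that rests mostly on the split between arrays with and without PMA. CXCL8 was most like EGR1 (r = 0.998), GADD45B and FOS, and CCL7 most like EGR3 (r = 0.998), C11orf96 and SDC4. CCL20 was most like C11orf96 (r = 0.991), ZFP36 and SDC4, CCL2 like CD83 (r = 0.988), FJX1 and NFKB1, and CXCL2 like MMP10 (r = 0.976), ABCB1 and TFPI2. CXCL1, on the probe set with the smaller PMA response, was most like NFKBIA (r = 0.926), COL7A1 and ELL2, and had 0 genes above 0.95, where CXCL8 had 429.

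Markers of other cell types that express chemokines were checked. Of 9 leukocyte markers on the array, 7 averaged below the floor in all groups, among them PTPRC (CD45), at 2.27 in PMA and 2.18 in vehicle arrays, and SPI1, at 3.21 and 3.12. The summed linear signal of the 9 was 107 to 119 in DOC plus PMA, 108 to 114 in PMA, 93.6 to 101 in DOC and 92.3 to 102 in vehicle arrays. Only 2 of the 9 were tested, CD68 (0.43 ± 0.16) and CORO1A (0.40 ± 0.12), and both were called higher with PMA, against 17.7% of all genes. In DOC plus PMA against DOC limma called CORO1A (0.54 ± 0.12, adjusted p = 0.00138) and not CD68 (0.16 ± 0.16, adjusted p = 0.448). Of 7 endothelial markers, with sums of 155 to 164 in PMA and 141 to 158 in vehicle arrays, 5 were tested. With PMA against vehicle 3 were higher (TIE1, PECAM1 and ESAM) and 1 lower (EGFL7), where 17.7% of all genes were higher and 29.3% lower. CDH5 and KDR averaged below the floor, as did PECAM1 in vehicle arrays, at 3.98. In DOC plus PMA against DOC 0 of the 5 were called, where 1958 of the 12495 genes were higher and 3365 lower. None of the 3 fibroblast markers tested of 6 was called with PMA against vehicle, with sums of 77.2 to 85.6 in PMA and 73.1 to 83.0 in vehicle arrays. The part of these markers in the chemokine results was not tested. The 8 genes chosen as markers of the HEK293 line all passed the dim filter. With PMA against vehicle 3 of them were higher and 1 lower, where 17.7% of all genes were higher and 29.3% lower. The neurofilament gene NEFM was higher by 2.51 ± 0.15 and the keratin genes KRT8 and KRT18 by 0.79 ± 0.14 and 0.77 ± 0.09, and NEFL, a further neurofilament gene, fell by 0.45 on the log2 scale. VIM, at 12.79 in PMA and 12.69 in vehicle arrays, was not called.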

How the data were processed

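Total RNA (100 ng per array) from 16 samples of transfected HEK293 cells was labelled with biotin by a 3' IVT kit and hybridised to Affymetrix arrays, per the labels' protocols. The deposited values are log2 signals per probe set, and the submitters' processing notes name RMA and the Affymetrix Expression Console, with versions not given in the sources used here. Because RMA gives every array the same distribution, a shift of all transcripts together cannot be seen. The table held 49293 probe sets and 0 columns of other samples, with values from 1.21 to 13.8. Arrays have no read depth, and their number limits the precision.

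The platform annotation tied 44988 probe sets to 1 gene, 1832 to several and 2473 to none. Group means were fitted to all 16 arrays with limma 3.58.1 (R 4.3.3, lmFit and eBayes), with two-sided Benjamini-Hochberg adjusted p under 0.05 as the threshold. This was done on all probe sets without filter, and per gene after keeping probe sets at or above the 40th percentile of their array in at least 4 arrays and taking the kept probe set with the highest mean (12495 genes). Differences are given ± SE, levels as mean ± SD, intervals at 95%. Folds are set against the array's 40th percentile where the lower group lay under it. The fits were tested on simulated data. Promoter motifs were searched in Python 3.11.15.

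The 7 genes and all gene and marker lists were chosen with earlier results of these data known. Named from the lists were the genes called for PMA against vehicle with up to the 4 largest changes, and those called for DOC; others (RELB, NFKB1, RELA, NFKBIE, KHSRP, HNRNPD, UPF1, TNFAIP3, TNFSF9, CXCR4, IL6, CXCL14, CCL16, CCL24, the low receptors, the neighbours and the markers) were named after their values were seen. For each member the 3 genes with the highest correlation were named. Replicate numbers were taken to pair PMA with DOC plus PMA arrays, from the data alone, since deviations from the group means of same-numbered arrays correlated above 0.1 in 4 of 4 pairs (0.157 to 0.549); in any other pair of groups at most 3 of 4 did.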

Additional observations from a re-analysis of the deposited data

Results flagged for a closer look

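For 52 sets of 4 arrays (each chemokine probe set, with the shared CXCL1 and CXCL2 probe set, in each group), the gap between the highest or lowest array and its nearest neighbour was divided by the range and set against Dixon's 95% critical value for 4 samples. Chance alone passes this in about 1 in 20 sets, and 3 of the 52 passed. CXCL3 on 11728477_at read 2.03 in DOC replicate 4, below 2.42 to 2.45 in the other DOC arrays, all under the floor. CXCL3 on 11728476_a_at read 3.01 in PMA replicate 3, below 3.70 to 3.79 in the other PMA arrays, all under the floor. CCL7 read 8.06 in DOC plus PMA replicate 1, above 7.71 to 7.73 in the other DOC plus PMA arrays, all above the floor.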

How the results depend on the processing

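The count of chemokine probe sets called was 12 for PMA against vehicle and 0 for every comparison of DOC under each scaling, block, array weighting, variance prior and left-out array tried. The exception was raising signals to the floor, which left 10 of 12 for PMA against vehicle and 9 of 12 for DOC plus PMA against DOC and against vehicle, by construction. In the gene-level fit, requiring signals above the 40th percentile on all 16 arrays left 2 chemokines to test, CXCL8 and CXCL1, and both were called in each of the 3 comparisons of PMA. The log2 difference of CXCL1 for PMA against vehicle was 0.60, 1.72 with the mean of its probe sets and 2.84 with a 60th percentile filter, which keeps the other probe set. With the floor, CCL7 differed by 3.94, CCL20 by 2.69, CCL2 by 1.77 and CXCL2 by 0.92.

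Counts of all genes called moved more. Array weights gave 89 genes for DOC plus PMA against PMA (48 as reported), 25 for the interaction (11) and 94 for the effect of DOC over both levels of PMA (54), and the cause was not tested. Leaving out 1 array at a time gave 31 to 53, 5 to 14 and 44 to 68 genes for these, and 0 to 1 chemokines for the last, the 1 being CXCL1 without DOC plus PMA replicate 4.

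With the replicate numbers as a block over all 16 arrays, 6108 genes were called for PMA against vehicle and 56 for DOC plus PMA against PMA. A block over PMA and DOC plus PMA arrays alone, the groups taken as paired, gave 61. Neither block changed the call of any chemokine.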
